A study of Mus musculus with 10 samples.

Results

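The transcription factor NRF2, encoded by Nfe2l2, its inhibitor Keap1 and 8 of its textbook target genes were followed in the testes of mice whose mothers had been fed normally or undernourished in pregnancy. The 10 genes were chosen by name, and all had probes on the array, 13 in number, out of 23458 gene symbols to which probes could be assigned. All 10 genes were measured well enough to be tested, among 16735 genes in all, and 12 of the 13 probes were.

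NRF2 is a basic leucine zipper factor that is made and destroyed continuously. Keap1 holds it in the cytoplasm and passes it to a Cul3 ubiquitin ligase. Oxidants and electrophiles modify Keap1, so that NRF2 escapes, enters the nucleus, pairs with a small Maf protein and binds antioxidant response elements in front of genes for detoxification, glutathione and thioredoxin. Because this control acts on the protein, the mRNA levels given here say nothing of the amount or place of NRF2 protein, neither of which was measured. In the testis these enzymes meet the oxidants made by steroid-producing Leydig cells and by dividing and maturing germ cells, whose membranes are rich in oxidisable lipids.

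The animals were male C57BL/6N mice aged 6 weeks, 1 testis and 1 array each. The 5 C animals were sons of mothers with free access to chow throughout pregnancy, and their own mothers raised them. The 5 R animals were sons of mothers given 50% of the mean control intake from 6.5 days post coitum, and unrelated control females fostered them. All were weaned onto chow without restriction. Fostering went with the prenatal diet, so the effects of the 2 cannot be told apart, and the litters are not given in the sources used here. Arrays are named by group and replicate, C1 to C5 and R1 to R5. The log2 signal of a probe is the log2 of its background-corrected brightness minus the 75th percentile of its array. A value of 0 is thus that percentile, and levels of different probes cannot be set against each other. Differences are R minus C on this log2 scale, and a gene was called changed where limma's adjusted p was under 0.05.

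The arrays lay on 2 slides, the first with C1, C2 and R1 to R4 and the second with C3, C4, C5 and R5. Between 54.6% and 65.9% of probes were well above background on an array, and no spot was saturated. C2 stood apart, with the lowest median signal of the 10 arrays, 49.5 against 68.1 to 88.0 in the others. The authors' deposited table of their own comparison grouped R1 with its controls and C5 with its test animals, against the group labels of both samples. Groups here follow the labels. Under the table's grouping limma called 0 of 16735 genes, with 1451 at an unadjusted p under 0.05. With R1 and C5 left out it called 2980 genes, against 6248 with all 10 arrays, and calls that were lost without them are named below. For the tissue label, 7 of 7 elongating spermatid markers were above background on all arrays, and 6 of 6 epididymis markers were so on none.

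Promoter sequence shows where the elements that NRF2 reads could lie in genes that did and did not differ between the groups. RefSeq windows from 250 bases before to 50 bases after the start (assembly GRCm38.p6) were at hand for 7 of the 10 genes, in 9 windows because Txnrd1 had 3. They were searched on both strands for the core of the antioxidant response element, TGACNNNGC, and for the AP-1 element, TGANTCA, which resembles it. Of all 32851 windows, 12.4% held the first motif and 7.81% the second, and no match of one overlapped a match of the other in the windows of the 10 genes. The 250 bases before the start are printed for Nfe2l2 (chr2:75704664-75704913, minus strand), Keap1 (chr9:21239333-21239582, minus strand), Nqo1 (chr8:107403206-107403455, minus strand) and Gclm (chr3:122245307-122245556, plus strand). They read 5′ to 3′ along the gene, and capitals mark the antioxidant response element core or its reverse complement.

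Nfe2l2: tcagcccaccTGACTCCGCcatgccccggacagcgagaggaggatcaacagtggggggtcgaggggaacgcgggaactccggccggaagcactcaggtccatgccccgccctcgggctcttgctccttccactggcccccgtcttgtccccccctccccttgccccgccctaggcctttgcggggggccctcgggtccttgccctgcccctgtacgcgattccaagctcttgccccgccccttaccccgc
Keap1: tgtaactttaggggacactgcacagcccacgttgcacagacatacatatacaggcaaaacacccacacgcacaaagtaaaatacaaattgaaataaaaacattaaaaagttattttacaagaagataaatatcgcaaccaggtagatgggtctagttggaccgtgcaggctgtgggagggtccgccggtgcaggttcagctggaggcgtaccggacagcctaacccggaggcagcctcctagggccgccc
Nqo1: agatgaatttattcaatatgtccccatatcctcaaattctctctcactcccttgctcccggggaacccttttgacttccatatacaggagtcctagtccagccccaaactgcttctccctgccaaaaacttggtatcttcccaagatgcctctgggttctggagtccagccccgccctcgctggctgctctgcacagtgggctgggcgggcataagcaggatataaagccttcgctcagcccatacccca
Gclm: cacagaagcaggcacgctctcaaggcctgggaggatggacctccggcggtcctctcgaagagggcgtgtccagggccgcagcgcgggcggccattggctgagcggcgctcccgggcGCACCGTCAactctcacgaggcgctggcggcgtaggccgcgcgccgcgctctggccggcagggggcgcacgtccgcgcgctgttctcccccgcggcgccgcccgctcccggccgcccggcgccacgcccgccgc

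The Nfe2l2 window held TGACTCCGC, beginning at base -240 from the start. That of Gclm held TGACGGTGC on the opposite strand, from base -134. Among the windows not printed, the middle Txnrd1 start had TGACAAAGC on the opposite strand from base -92. The Srxn1 window had TGACCTAGC on the opposite strand from base +29, beside 2 AP-1 elements of sequence TGAGTCA. Keap1, Nqo1 and Slc7a11 showed neither motif in their windows. A match describes letters only, and elements farther from the start lie outside these windows. Variants of the 2 motifs, such as an element core with another base in place of its C, were not searched. A window without a match may thus still hold such a variant.

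Nfe2l2, the gene of the factor itself, was lower in every R testis than in any C testis. Its log2 signal was 0.58, 1.02, 0.59, 0.52 and 0.79 in C1 to C5 and -0.22, -0.14, -0.02, -0.08 and -0.15 in R1 to R5. The groups did not overlap, C2 was the highest array, and the R animals lay within a narrow band. The C mean was 0.70 ± 0.21 and the R mean -0.12 ± 0.08 (SD, n = 5 each). The difference was -0.82 (SE 0.097, 95% interval -1.03 to -0.61; limma adjusted p = 0.000788), a level 1.76-fold lower in R (interval 1.52 to 2.05). R1 and C5, the arrays in dispute, lay with the groups on their labels, at -0.22 and 0.79. Without both arrays the difference was -0.77 (adjusted p = 0.0124), and without C2 it was -0.74 (adjusted p = 0.000323). With the table's grouping it was -0.42 (adjusted p = 0.455).

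A further Nfe2l2 probe, designed to the noncoding transcript NR_132727, was far dimmer. It lay between -3.24 and -2.98 in C and between -3.92 and -3.18 in R, and it was well above background on all 5 C arrays but only on R1, R2 and R5. Its difference was -0.43 (SE 0.14; adjusted p over probes 0.0318), in the same direction as the main probe, and R1 overlapped the C animals. This was the only 1 of the 13 probes that the authors' deposited table listed, with a p of 0.00642, a q of 0.515 and a log2 ratio of -0.38 under its own grouping.

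Keap1, the adaptor that delivers NRF2 to the ubiquitin ligase, was slightly higher in R. Its log2 signal was 2.68, 2.44, 2.89, 3.02 and 2.66 in C1 to C5 and 2.99, 2.98, 3.02, 3.00 and 3.15 in R1 to R5. C4 reached the R animals, so the groups overlapped, and C2 was the lowest array. The means were 2.74 ± 0.22 and 3.03 ± 0.07 (SD, n = 5 each), a difference of 0.29 (SE 0.10, interval 0.07 to 0.52; adjusted p = 0.0447), or 1.22-fold higher (interval 1.05 to 1.43). The call was at the edge of the threshold. It was lost when any 1 of 8 arrays was left out, all but C3 and C4, with differences of 0.22 to 0.36 and adjusted p up to 0.0974 over the 10 omissions. It was also lost when arrays were scaled to their medians, where the difference was 0.10 (adjusted p = 0.373), with array weights (0.15, adjusted p = 0.121) and without both R1 and C5 (0.28, adjusted p = 0.131). Either scaling shifts all genes of an array by the same amount. The difference relative to the median of all genes, 0.34, is therefore equal under both by construction and lends the call no weight.

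Within an array the log2 distance from Nfe2l2 to Keap1 does not depend on how arrays are scaled. Its size reflects the brightness of the 2 probes and only its change between arrays can be read. The distance was 1.42 to 2.49 in the C testes and 3.04 to 3.30 in the R testes. The C mean of this distance was 2.04 ± 0.41 and the R mean 3.15 ± 0.11 (SD, n = 5 each), and the groups did not overlap. The distance was formed after both genes' values were known and carries no test. The distance was wider by 1.11 in R.

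**Figure D1:**
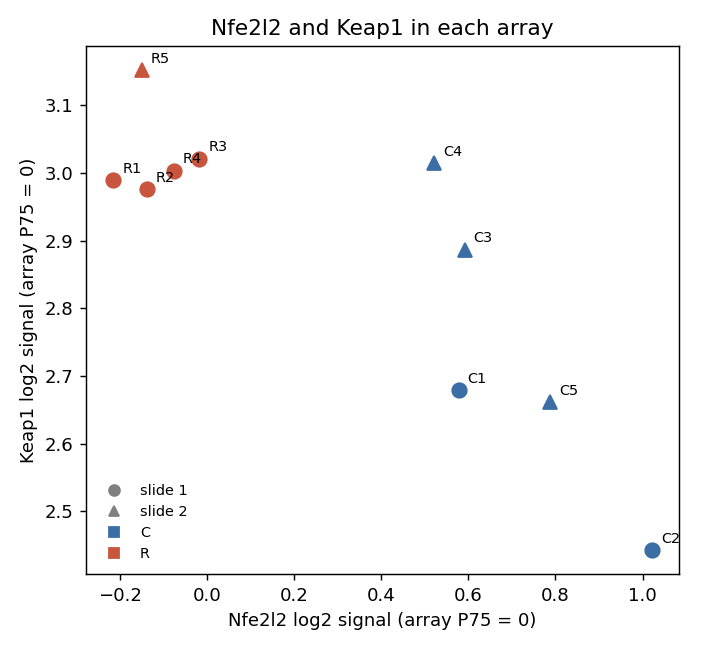
Log2 signal of Keap1 (vertical) against Nfe2l2 (horizontal), each relative to the array's 75th percentile, with 1 labelled point per testis, coloured by group and shaped by slide. The 5 R testes lie together at the upper left, from -0.22 to -0.02 on the Nfe2l2 axis, and the C testes spread from C4, as high in Keap1 as the R animals, down to C2 at 2.44.

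Nqo1, the quinone reductase long used as a readout of NRF2 activity, was dim and lower in R. Its log2 signal was -3.65, -2.80, -3.21, -3.66 and -3.24 in C1 to C5 and -3.90, -4.25, -4.32, -4.29 and -4.29 in R1 to R5. The groups did not overlap, R1 was the highest R array, and C2 was the highest of all. The means were -3.31 ± 0.36 and -4.21 ± 0.17 (SD, n = 5 each), and the difference was -0.90 (SE 0.16, interval -1.25 to -0.54; adjusted p = 0.00346), 1.86-fold lower (interval 1.45 to 2.39). Only R1, R2 and R5 were well above background in R, so the low level there is near the limit of the array. With the normexp background correction the difference shrank to -0.36 and remained called (adjusted p = 0.0122).

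Hmox1 encodes haem oxygenase 1, which opens the haem ring, and the gene is also induced by heat shock and repressed by Bach1. Hmox1 was lower on average in R and just missed the threshold. Its log2 signal was 0.55, 1.06, -0.16, -0.05 and 0.15 in C1 to C5 and -0.26, 0.08, -0.45, -0.35 and -0.52 in R1 to R5. C1 and C2, both on the first slide, were the highest, and C3 and C4 overlapped the R animals. The means were 0.31 ± 0.50 and -0.30 ± 0.24 (SD, n = 5 each). The difference was -0.61 (SE 0.22, interval -1.10 to -0.12; adjusted p = 0.0505). Fitted with slide as a block, the difference was -0.85 (adjusted p = 0.00334), and it was -1.05 within the first slide (adjusted p = 0.00937) and -0.50 within the second (adjusted p = 0.162). It also passed without C3, C4 or R2, with adjusted p down to 0.0274, and ranged from -0.73 to -0.42 over the omissions of 1 array. Further passes came with normexp (adjusted p = 0.0338), quantile normalisation (0.0452), median scaling (-0.80, adjusted p = 0.0286), the filter on all arrays (0.0438) and a trended variance (0.0397). Array weights gave -0.31 (adjusted p = 0.0836).

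Glutathione is built by glutamate-cysteine ligase, whose catalytic and modifier subunits are encoded by Gclc and Gclm, and neither differed by a detectable amount. Gclc measured 1.66 to 1.81 in C and 1.72 to 1.89 in R, with a difference of 0.05 (SE 0.059, interval -0.08 to 0.19; adjusted p = 0.482). Gclm measured 2.11 to 2.20 in C and 2.10 to 2.21 in R. Its means were 2.16 ± 0.04 and 2.15 ± 0.05 (SD, n = 5 each), and the interval of its difference ran from -0.12 to 0.11 (adjusted p = 0.939). The groups overlapped almost wholly for both subunits, and the intervals leave room for changes of at most 0.19 in size under this scaling. With array medians they ran from -0.32 to 0.05 for Gclc and from -0.39 to 0.0027 for Gclm, and with the authors' constants up to 0.31 and 0.21. The Gclm window held the element core as the Nfe2l2 window did, and Nfe2l2 was called lower while Gclm was not called. A link between the element core and the levels of these genes was not tested.

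Gsr, glutathione reductase, returns oxidised glutathione to its reduced form, and its level was lower in R. Its log2 signal was 1.23, 1.84, 0.82, 0.71 and 1.09 in C1 to C5 and 0.47, 0.71, 0.19, 0.34 and 0.34 in R1 to R5. The groups touched, since R2 at 0.712 stood just above C4 at 0.708. The means were 1.14 ± 0.45 and 0.41 ± 0.20 (SD, n = 5 each), and the difference was -0.73 (SE 0.20, interval -1.16 to -0.30; adjusted p = 0.0170), 1.66-fold lower (interval 1.23 to 2.23). It stayed called without any 1 array, at -0.84 to -0.55, the smallest value being that without C2. Without both R1 and C5 it was -0.76 (adjusted p = 0.0616). Within the slides it was -1.11 in the first (adjusted p = 0.00940) and -0.54 in the second (adjusted p = 0.179). C2 was the highest C array and R2 the highest R array for Gsr and for Hmox1 alike. The same arrays stood highest in summed adipocyte marker signal, in multiples of the 75th percentile, C2 at 11.8 against 2.62 to 4.31 in the other C testes and R2 at 17.3 against 4.10 to 5.08 in the other R testes. C2 and R2 were also highest of their groups in the sums of Sertoli, Leydig, peritubular myoid, spermatogonial, spermatocyte and elongating spermatid markers. For macrophage, endothelial, erythroid and round spermatid markers they were not both highest. The part of any of these in the values of Gsr and Hmox1 was not tested.

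The thioredoxin branch showed no call. Txnrd1, the cytosolic thioredoxin reductase, measured 1.48 to 1.66 in C and 1.37 to 1.53 in R, with a difference of -0.12 (SE 0.060, interval -0.25 to 0.01; adjusted p = 0.134). It passed when arrays were scaled to their medians (-0.31, adjusted p = 0.0127) and with array weights (-0.17, adjusted p = 0.0158). Its other probe, for the same transcript, went the opposite way by 0.09 (adjusted p over probes 0.329). Srxn1, sulfiredoxin, which repairs overoxidised peroxiredoxins, measured 0.01 to 0.25 in C and 0.02 to 0.23 in R. Its difference was 0.03 (SE 0.069, interval -0.13 to 0.18; adjusted p = 0.763), and it took a negative sign under median scaling (-0.16). The Srxn1 groups overlapped over nearly their whole range. Its window had the element core and both AP-1 elements, and a link between these motifs and the level was not tested.

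Slc7a11, the light chain of the cystine importer that feeds glutathione synthesis, was dim. It lay between -3.39 and -3.12 in C and between -3.68 and -3.30 in R. The difference was -0.21 (SE 0.081, interval -0.39 to -0.03; adjusted p = 0.0649), and the groups overlapped. It passed with quantile normalisation (-0.40, adjusted p = 0.00381), with median scaling (-0.40, adjusted p = 0.00738), with array weights (-0.24, adjusted p = 0.0208), and without C2 or R3, with adjusted p down to 0.0394. A further Slc7a11 probe stayed near background on all 10 arrays and was not tested.

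**Figure D2:**
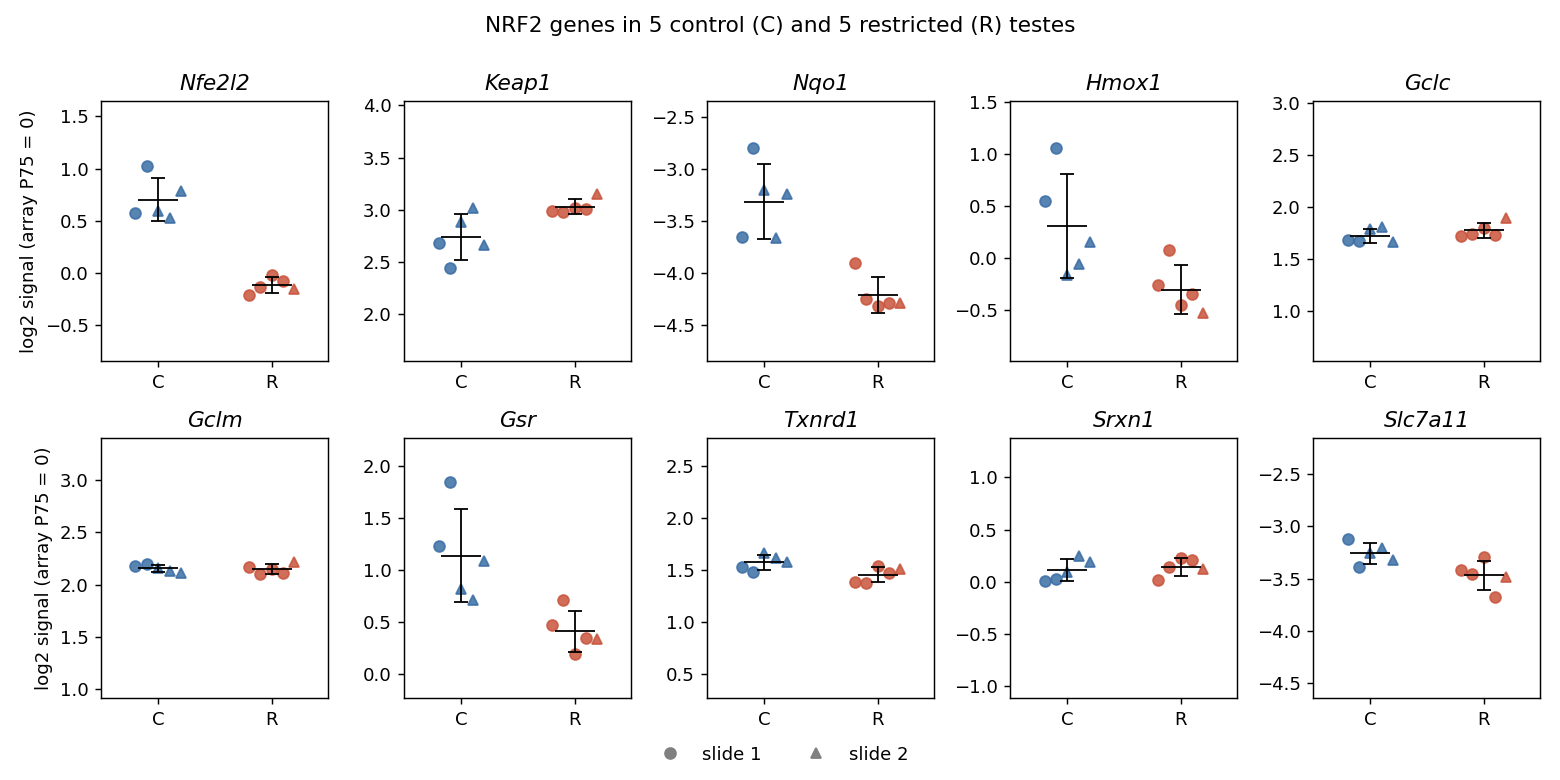
Log2 signal of each gene's brightest probe (vertical, array 75th percentile = 0) in the 5 C and 5 R testes, 1 point per testis, with the mean and SD as bars and the slide as the point's shape. All panels span the same height on the log2 scale. The C and R points of Nfe2l2 and Nqo1 do not overlap, those of Gsr barely touch, and those of Gclc, Gclm and Srxn1 coincide.

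Over the 10 genes, 4 were called, 1 higher and 3 lower. Over all 16735 genes 37.3% were called, 13.7% higher and 23.6% lower, so the share among the NRF2 genes is close to that of the whole array and is no result about them as a group. By the study's criterion, a fold above 1.5 or under 0.66 with an adjusted p under 0.05, Nfe2l2, Nqo1 and Gsr passed, against 10.5% of all genes. The groups did not overlap for 2 of the 10 genes, both lower in R, against 29.3% of all genes, of which 18.3% were lower and 11.0% higher. Of the 12 tested probes 5 were called, 1 higher and 4 lower, against 38.8% of all probes, 19.8% higher and 19.0% lower. The median difference of the 10 genes was -0.16 beside -0.05 over all genes. By the rank of its p Nfe2l2 was the 110th gene of the array, Nqo1 the 1028th, Gsr the 3552nd and Keap1 the 5901st.

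The 4 called genes were called again with slide as a block. The differences were then -0.87 for Nfe2l2 (adjusted p = 0.000874), 0.39 for Keap1 (adjusted p = 0.00571), -0.95 for Nqo1 (adjusted p = 0.00332) and -0.90 for Gsr (adjusted p = 0.00357). Within the first slide, of 2 C and 4 R arrays, Nfe2l2 differed by -0.91, Keap1 by 0.44 and Nqo1 by -0.96. Within the second, of 3 C and 1 R arrays, they differed by -0.78, 0.30 and -0.92. No gene on the array was called within the second slide alone, where 4090 had an unadjusted p under 0.05 and a single R animal stood for its group.

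**Figure D3:**
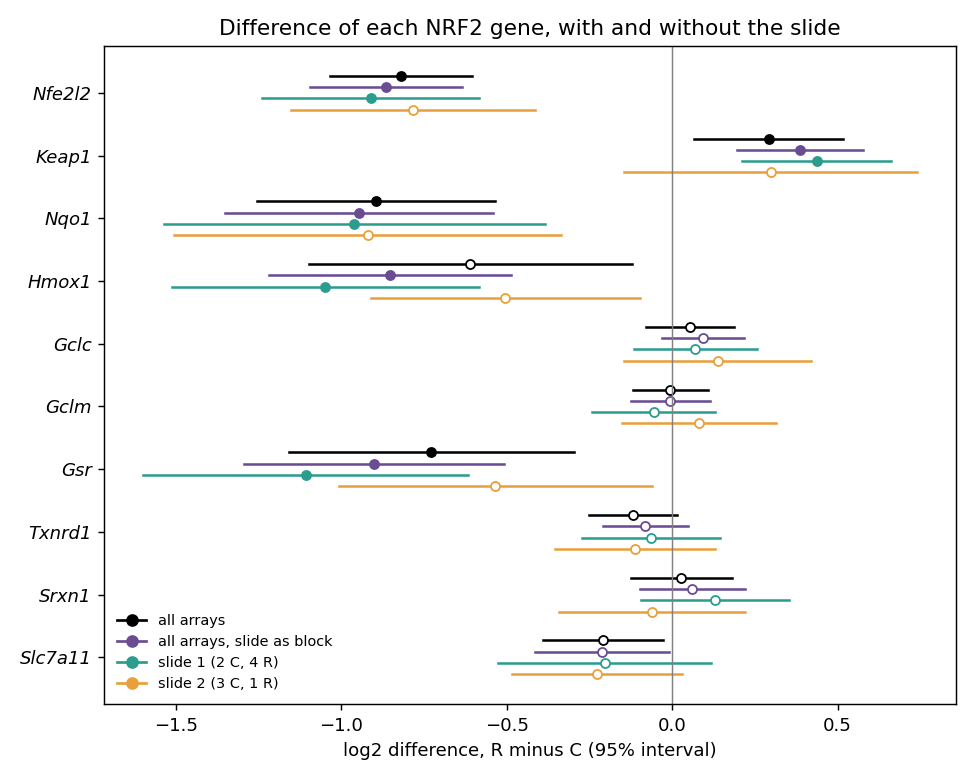
Log2 difference R minus C of each gene (horizontal) with its 95% interval, from all 10 arrays, from all arrays with the slide as a block, and within each slide. Filled points have an adjusted p under 0.05. Nfe2l2, Nqo1 and Gsr lie left of 0 and Keap1 right of it in each of the 4 fits, and among these fits Hmox1 passes with the slide as a block and within the first slide.

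Among genes whose proteins act on NRF2 or beside it, some transcripts were called higher and some lower. Of 22 regulators tested, 5 were higher and 4 lower, with a median of -0.06. Over all genes 13.7% were higher and 23.6% lower, so 9 calls of 22 are close to the share of the whole array. The balance moved with the setting. With median scaling 3 regulators were higher and 8 lower, with a median of -0.25. Over all 16735 genes that scaling gave 904 higher and 6354 lower, with a median of -0.24, so the shift was not particular to the regulators. With slide as a block 4 regulators were higher and 7 lower. Cul3, the scaffold of the ligase that Keap1 recruits, was higher by 0.41 (SE 0.099; adjusted p = 0.0113). The coactivators Crebbp and Ep300, acetyltransferases that NRF2 contacts, were higher by 0.54 (adjusted p = 0.00128) and 0.40 (adjusted p = 0.00681). A second Crebbp probe gave 0.28 (adjusted p over probes 0.0578) and a second Ep300 probe 0.04, neither of them called. Mafk, a small Maf partner, was higher by 0.25 (adjusted p = 0.0456), a call lost without any 1 array but C3 or R2, with adjusted p up to 0.101. Under median scaling Mafk differed by only 0.06 (adjusted p = 0.615). Rbx1, the RING subunit of the same ligase, fell by 0.44 (adjusted p = 0.00772), so that 2 subunits of the ligase moved in opposite directions.

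The partner Maff fell by 0.78 (adjusted p = 0.0162), and the relative Nfe2l3 fell by 0.996 (adjusted p = 0.00332). A second, dimmer Nfe2l3 probe gave -0.18 and was not called (adjusted p over probes 0.767). The Nfe2l3 call was lost over the mean of its probes (-0.59, adjusted p = 0.0716). Palb2, a Keap1-binding partner of BRCA proteins, fell by 0.36 (adjusted p = 0.0247), a call lost without C5 or R1, with adjusted p up to 0.0604. Several central regulators did not pass. Mafg, the small Maf most often paired with NRF2, differed by 0.01 (interval -0.26 to 0.28; adjusted p = 0.957), and the repressor Bach1 by -0.15 (adjusted p = 0.717). The paralog Nfe2l1 differed by -0.17 (adjusted p = 0.193). Sqstm1, the autophagy receptor p62 that sequesters Keap1, differed by -0.16 at its brightest probe (adjusted p = 0.0864) and by -0.42 at its other probe (adjusted p over probes 0.00494). It passed over the mean of both (-0.29, adjusted p = 0.0113), with slide as a block (-0.20, adjusted p = 0.0358), within the first slide (-0.28, adjusted p = 0.0354), with median scaling (-0.35, adjusted p = 0.0287) and without C4 (-0.20, adjusted p = 0.0356).

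Genes widely listed as NRF2 targets, other than the 10 above, were mostly lower where they were called. Of 41 tested, 16 were lower and 3 higher, and the median was -0.39 beside -0.05 over all genes, of which 23.6% were lower and 13.7% higher. Mgst1, a membrane-bound glutathione transferase, fell by 1.14 (SE 0.12; adjusted p = 0.000661) and did not overlap between groups. The carbonyl reductase Cbr3 fell by 0.999 (adjusted p = 0.0126), and the transferases Gstp1 and Gsta4 both fell by 0.73 (adjusted p = 0.00499 and 0.0158). Copies of the transferase families may share signal, so these values are uncertain as to the copy. Higher in R were the peroxidase Gpx2 by 0.73 (adjusted p = 0.0461), the glucuronosyltransferase Ugt1a6a by 0.40 (adjusted p = 0.0342) and Osgin1, a growth inhibitor, by 0.30 (adjusted p = 0.0337). The Gpx2 call was lost without any 1 array but C2, C3 or C5 (adjusted p up to 0.0949). That of Ugt1a6a was lost without any but C1, C4 or R3 (up to 0.0754), and that of Osgin1 without any but C2, C3, C4 or R2 (up to 0.0759). Under median scaling limma called 0 of the 41 targets higher. Gpx2 differed there by 0.54 (adjusted p = 0.0504), Ugt1a6a by 0.21 (0.173) and Osgin1 by 0.11 (0.292). Quantile normalisation lost the calls of Gpx2 (adjusted p = 0.0505) and Ugt1a6a (0.204), and normexp that of Ugt1a6a (0.103).

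The count of these targets lower in R moved with the setting. It was 27 with slide as a block, 25 under median scaling and 14 without C2, where the median was -0.26. Under median scaling 6354 of all 16735 genes were lower and 904 higher, with a median of -0.24. Without both R1 and C5 the count of lower targets was 7, with 0 higher by limma and a median of -0.42. There 22 targets had an unadjusted p under 0.05 in either direction. Of all 16735 genes, 2020 were lower and 960 higher without both arrays, with a median of -0.05. By limma 0 targets were called under the table's grouping, with 7 at an unadjusted p under 0.05, and 0 within the second slide, with 19. The medians were -0.26 and -0.27 there. Left-out arrays moved the number called in either direction to 11 without C1, R1 or R3, 12 without R4 and 10 without R5.

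Among genes that supply or break down glutathione, 6 of 15 tested were lower and 0 higher by limma, with 1 higher at an unadjusted p under 0.05 and a median of -0.10, against 23.6% lower over all genes. One of the 6, Cth, entered the test only through its C arrays, and 5 of 14 were lower without it. The count of 6 fell to 3 without R1 and to 2 without both R1 and C5. Cth, which makes cysteine from cystathionine, could be told from background on none of the R arrays, and its level was at least 1.48-fold lower there. Chac2, a glutathione-degrading cyclotransferase, fell by 0.75 (adjusted p = 0.00115). Slc3a2, the heavy chain that carries Slc7a11 to the membrane, fell by 0.49 (adjusted p = 0.0155). Its other, dimmer probe gave -0.30 and was not called (adjusted p over probes 0.169). The neutral amino acid carrier Slc1a4 fell by 0.41 (adjusted p = 0.0467), a call lost without any 1 array but C2 or C4, with adjusted p up to 0.0916. Gss, the second enzyme of glutathione synthesis, differed by -0.10 (interval -0.38 to 0.19; adjusted p = 0.552), beside the flat values of Gclc and Gclm.

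Paralogs of the 10 genes and genes of a second pathway that induces Slc7a11 gave a point of reference. Of 12 paralogs 4 were lower and 0 higher by limma, with 1 higher at an unadjusted p under 0.05. The lower share over all genes was 23.6%. One of the 4 was Nfe2l3. The count of 4 lower fell to 2 without R4, without both R1 and C5, or with the authors' constants, and with slide as a block it was 5, with 2 higher. Txnrd2, the mitochondrial thioredoxin reductase, fell by 0.58 (adjusted p = 0.0204), while Txnrd3, the reductase abundant in testis, differed by 0.25 (adjusted p = 0.0713), or by 0.34 once slide was a block (adjusted p = 0.00958). Nqo2 fell by 0.23 (adjusted p = 0.0335), a call lost without any 1 array but C2, C5 or R1, with adjusted p up to 0.0827, and Klhl12, a Keap1-like adaptor, fell by 0.23 (adjusted p = 0.0230), a call lost without R1 or R4, with adjusted p up to 0.0580. Hmox2, the constitutive haem oxygenase, differed by -0.11 (adjusted p = 0.0953). Of 16 targets of ATF4, the amino acid response factor, 5 were lower and 0 higher by limma, with 1 higher at an unadjusted p under 0.05. The median was -0.05, that of all genes, of which 23.6% were lower. The number called fell to 3 without C1 or R1, to 2 without R3, R4 or R5, to 3 with no filter, and to 0 without both R1 and C5, where 5 had an unadjusted p under 0.05. They were led by the mTOR inhibitor Ddit4 (-0.63, adjusted p = 0.0262), the serine synthesis genes Psat1 (-0.52, adjusted p = 0.0336) and Psph (-0.33, adjusted p = 0.0197), and Trib3, a pseudokinase (-0.51, adjusted p = 0.0438). The call of Ddit4 was lost without C1, R3, R4 or R5 (adjusted p up to 0.0604), that of Psat1 without any of these or R1 (up to 0.0743), and that of Trib3 without any of these, R1 or C5 (up to 0.0978).

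Without both R1 and C5, the calls of Mafk, Palb2, Cbr3, Gpx2, Ugt1a6a, Osgin1, Slc3a2, Slc1a4, Txnrd2, Klhl12, Ddit4, Psat1, Trib3 and Psph were lost, with adjusted p from 0.0614 to 0.147. Their differences lay on the same side of 0 as before. The calls of Crebbp, Cul3, Ep300, Nfe2l3, Maff, Rbx1, Mgst1, Gstp1, Gsta4, Chac2 and Nqo2 held without both arrays.

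**Figure D4:**
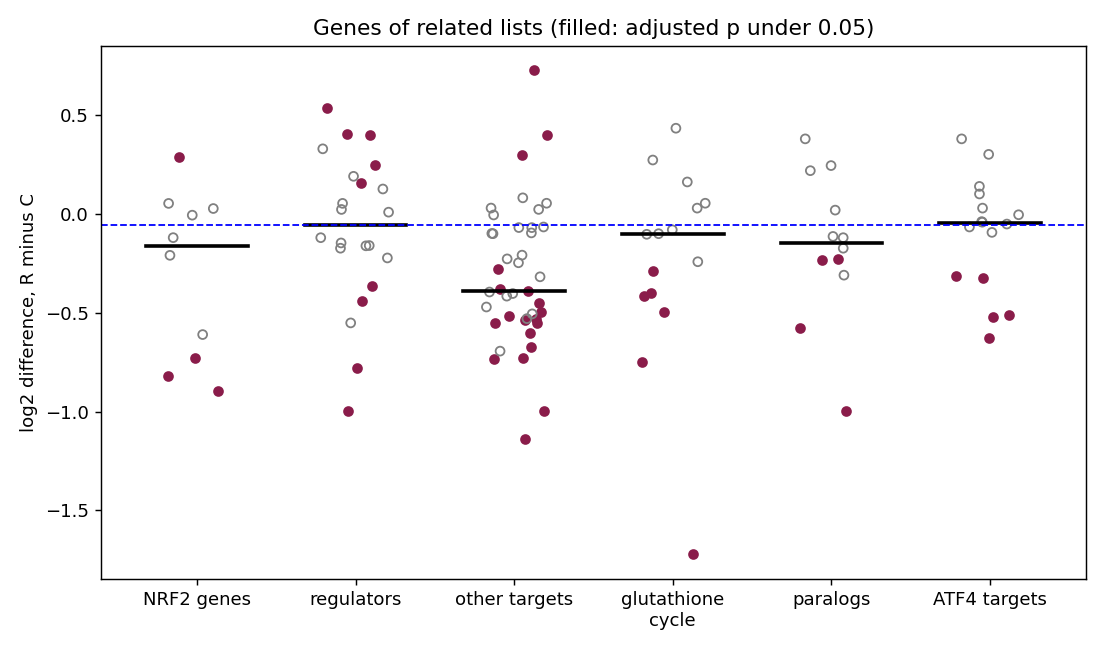
Log2 difference R minus C (vertical) of every tested gene of the 10 NRF2 genes and 5 related lists, filled where the adjusted p was under 0.05, with each list's median as a black bar and the median of all 16735 genes as a dashed line. The other targets have their median at -0.39, below the dashed line at -0.05, and the ATF4 targets at -0.05. Cth, the lowest point, is drawn at its measured difference, although no R array told it from background.

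Markers of several testis cell types differed between the groups as well, beside 23.6% of all genes lower and 13.7% higher. Of 11 Sertoli markers tested 10 were lower in R, with a median of -0.60, and their summed signal, in multiples of the array's 75th percentile, ran from 243 to 394 in C and from 184 to 213 in R, with Amh at background on all arrays. Leydig markers were lower in 5 of 8 (sums 35.3 to 65.1 in C, 28.0 to 36.2 in R), spermatogonial markers in 5 of 7 with 1 higher (35.4 to 61.4 in C, 26.5 to 30.6 in R) and spermatocyte markers in 5 of 7 (343 to 411 in C, 328 to 354 in R). The Leydig count fell to 2 without C1, R4 or R5, to 3 without C2, R1 or R3 or with no filter, and to 1 without both R1 and C5. Macrophage markers, of a cell type rich in Hmox1, were lower in 5 of 8, while their summed signal, 95.6% of it from Aif1, ran from 96.6 to 111 in C and from 100 to 113 in R. Of 4 erythroid markers tested, 2 were lower in R, a count of 1 without R1, 4 without R5 or with median scaling, and 0 by limma without both R1 and C5. Endothelial markers were higher in 4 of 7 (2.48 to 3.49 in C, 3.88 to 4.48 in R), or 2 without both R1 and C5. Single genes also made up most of the Sertoli sum (Clu, 66.8%), the spermatogonial (Uchl1, 66.9%), the spermatocyte (Ldhc, 71.5%) and the endothelial (Vwf, 69.4%).

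Peritubular myoid markers were higher in 1 of 5, or 0 by limma with median scaling and 1 at an unadjusted p under 0.05 (12.6 to 21.5 in C, 13.9 to 19.2 in R), and adipocyte markers were called in 0 of 6 by limma, with 1 at an unadjusted p under 0.05 (2.62 to 11.8 in C, 4.10 to 17.3 in R). The adipocyte median was 1.37, with Cfd at 3.01, Car3 at 2.40, Fabp4 at 2.08 and Plin4 at 0.65. Adipoq, the brightest of the 6, and Plin1 went the other way, at -0.28 and -0.16. Without C2, 3 of the 6 were higher, with a median of 1.90, with array weights 4 were higher and 1 lower, and without C1 1 was lower. Round spermatid markers were lower in 1 of 6 (173 to 202 in C, 177 to 200 in R), a count that was 0 in 9 of the 10 omissions of 1 array, all but C1. Elongating spermatid markers were lower in 1 of 7, with a median of 0.05 (0 lower without C1, R4 or R5, and a median of -0.14 under median scaling) and sums of 1524 to 1848 in C and 1572 to 1797 in R. In a whole testis, fewer cells of a type and less RNA per cell cannot be told apart, and the part of the marker differences in those of Nfe2l2, Nqo1, Gsr and the other targets was not tested.

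Genes whose values followed those of Nfe2l2 most closely over the 10 arrays, by the Euclidean distance of values centred on each gene's mean, were Qsox2 at a distance of 0.153, Gtf2e1 at 0.184, Nae1 at 0.185, Pex7 at 0.192 and Mzt1 at 0.202. Qsox2 is a thiol oxidase, Gtf2e1 a subunit of a general transcription factor, Nae1 a subunit of the enzyme that activates NEDD8, Pex7 a peroxisomal import receptor and Mzt1 a subunit of the centrosomal tubulin ring. Their differences lay between -0.91 for Gtf2e1 and -0.75 for both Nae1 and Mzt1. They were chosen for their likeness and carry no test of it.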

How the data were processed

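Spot intensity values of 10 one-colour Agilent mouse arrays were used as the authors deposited them. The submitters' processing notes name Agilent Feature Extraction 12.0.3.1. The processed intensity had background subtracted within each array and no scaling between arrays, per the file headers. The authors' deposited table holds p-values, q-values and log2 ratios for 2266 probes. Its scaled intensity columns served to read each array's scaling constant and the side of the comparison on which it was placed, and 10 further per-sample columns of spot flags were not used. RNA came from either of 2 column kits, and which kit served which testis is not given in the sources used here.

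Control and outlier spots were dropped, spots of a probe averaged, and log2 taken relative to the array's 75th percentile over non-control probes. A probe entered the test where 5 or more of the 10 arrays flagged it well above background. The test was limma's (3.58.1, under R 4.3.3), 2-sided, from lmFit and eBayes, with Benjamini-Hochberg adjustment, on probes (33851 tested) and on the brightest tested probe of each gene (16735 tested). Probes were named through their accessions in a RefSeq gene table, which held 33762 of 56605 probes. Replicates are separate animals, which may share litters.

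The 10 genes, the related and marker lists and the alternatives were chosen with earlier results of these data known. Named were all 10 genes, up to 4 called genes per direction with the largest difference in each related list, a set of paralogs and partners whatever their values, and the 5 genes nearest Nfe2l2. Where all arrays of a group left a gene at background, its fold is a lower bound: the brighter group's mean log2 signal against the mean, over the dim group's arrays, of the higher of its own signal and the lowest signal well above background there. Tested on simulated data of 33851 probes with 200 changed, the procedure recovered 73% of 2-fold and 96% of 4-fold changes and called 10 unchanged probes. In the real data 13134 probes were called, far more than were changed there, so these rates need not hold for the results above. Precision is limited by the number of arrays. The alternatives covered background correction, scaling, filters, slide, grouping, array weights, variance model and the omission of each array. The normexp alternative used the median spot signal with offset 50. A marker gene and a sum that includes it are not reported here.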

Additional observations from a re-analysis of the deposited data

Results flagged for a closer look

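In groups of 5, a sample is set apart where its gap to the nearest other sample, divided by the group's range, exceeds 0.710, and chance sets apart about 1 in 20 such groups. Of the 20 groups formed by the 10 genes, 2 met this. Keap1 in R5 was 3.15, next to 3.02 in the nearest R animal and 2.98 in the lowest, a gap of 0.744 of the range. R5 was the only R array on the second slide. Nqo1 in R1 was -3.90, next to -4.25 in the nearest R animal and -4.32 in the lowest, a gap of 0.830 of the range. R1 is an array that the authors' deposited table places among its controls, and its Nqo1 value was still below that of every C array.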

How the results depend on the processing

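The number of calls depended most on the group labels of R1 and C5 and on the slide. With the grouping of the authors' deposited table, the smallest adjusted p of limma was 0.462 over probes and 0.455 over genes, so that 0 probes, 0 genes, 0 of the 10 NRF2 genes and 0 genes of the related lists were called. Those with an unadjusted p under 0.05 numbered 2552, 1451, 1 and 12. Within the second slide alone it again called 0 of each, with 8749 probes, 4090 genes, 4 NRF2 genes and 34 list genes at an unadjusted p under 0.05. Without R1 and C5 it called 6164 probes, 2980 genes, 2 NRF2 genes (Nfe2l2 and Nqo1) and 16 list genes, and with no filter on dim probes 27 list genes, of 41 in the fit reported. Leaving out 1 array at a time gave 9220 to 13558 probes, 4297 to 6785 genes, 3 to 5 NRF2 genes and 24 to 43 list genes. The list count fell most without R1 (24), R3, R4 or R5 (25 each) and C1 (26). Nfe2l2 and Nqo1 were called under every alternative run except the second slide alone and the table's grouping. Over 239 alternative values of the 10 NRF2 genes, 187 kept direction and call. With probes required above background on all arrays, Nqo1, Nfe2l3, Maff, Cth and Trib3 were not tested. Scaling moved the balance of called genes: 36.8% were higher as reported, 12.5% with array medians (904 higher, 6354 lower) and 49.9% with the authors' constants (3022 higher, 3035 lower), while the median of all genes moved from -0.05 to -0.24 and 0.04. Signs that turned were all of uncalled genes, and the cause was not tested: Gclc with array medians (-0.14) and array weights (-0.00064); Gclm with normexp (0.0345), quantile normalisation (0.0237), the authors' constants (0.0831), the second slide (0.0820) and weights (0.00506), and from -0.0218 to 0.00680 over omissions of 1 array; Srxn1 with array medians (-0.16), the second slide (-0.0613) and weights (-0.0131); Mafg with array medians (-0.18), the slide as a block (-0.13), the first slide (-0.25), the table's grouping (-0.0845) and without R1 and C5 (-0.0468), and from -0.0642 to 0.0845 over omissions; Bach1 with the table's grouping (0.11) and weights (0.0763), and from -0.42 to 0.0041 over omissions; and Gss with weights (0.0441) and from -0.17 to 0.0011 over omissions. No paired analysis was possible because the replicate numbers only name the samples and the labels pair none. Signal over background limits Nqo1 and the noncoding Nfe2l2 probe, each above background on 3 of 5 R arrays. The same limit holds for Trib3, above background on 3 of 5 R arrays, and for Maff and Nfe2l3, each on 4 of 5.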
